A study of Mus musculus with 19 samples.

Results

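The mitosis and G2 phase genes were a set of 60 genes, fixed as a list of symbols, whose products carry a cell from late DNA replication through chromosome segregation to the separation of the daughter cells. All 60 were among the 24982 genes in the table of counts, and all 60 were among the 11464 genes that passed the filter on low counts. Symbols are written in capitals, as the table lists these mouse genes. By role, 14 members belonged to mitotic entry, 6 to the spindle checkpoint and chromosomal passenger complex, 7 to the kinetochore and centromere, 9 were kinesins and 11 were spindle and microtubule proteins. A further 4 belonged to anaphase, 4 to cytokinesis and 5 to chromatin and cohesion.

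RNA was sequenced from 19 samples of 50000 regulatory T cells (Tregs), sorted as CD4+FoxP3-GFP+ and either CD44high or CD44low from the lymph nodes that drain the site of injury. All mice were adult Foxp3DTR animals, in which the Foxp3 locus drives both the diphtheria toxin receptor and GFP. Injured mice were studied 7 days after a burn, and uninjured mice had the sham procedure. There were 4 libraries of CD44high Tregs from uninjured mice, 5 of CD44low Tregs from uninjured mice, 4 of CD44high Tregs from injured mice and 6 of CD44low Tregs from injured mice. The labels do not say whether a sample is 1 mouse or several, so p-values measure the spread between these samples. Of the 6 libraries of CD44low Tregs from injured mice, 3 carry a second number (1_2, 4_2 and 5_2) whose meaning the labels do not give.

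As background, cyclin A and cyclin B activate CDK1 to drive entry into mitosis, and the kinases PLK1, AURKA and AURKB then act on centrosomes, spindle and kinetochores. The spindle checkpoint holds back the anaphase-promoting complex until every kinetochore is attached, after which CDC20 and UBE2C help to mark securin and cyclin B for degradation. FOXM1, B-MYB and the MuvB complex raise transcription of this program late in the cell cycle, and the DREAM complex represses it in quiescent cells. Tregs that carry much CD44 have met antigen, whereas those with little CD44 are largely resting.

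Library totals ranged from 5582234 to 9433610 counts, with medians of 6066130 in CD44high Tregs from uninjured mice and 8496590 in those from injured mice. In CD44low Tregs the medians were 6323130 and 6663690. Levels are given as CPM, which are counts scaled to a common library size with TMM factors. CD44, the gene behind the sort, had 595 ± 37.5 CPM (SD, n = 4) in CD44high and 133 ± 16.1 CPM (SD, n = 5) in CD44low Tregs from uninjured mice. CD3E, CD4 and FOXP3 were detected in every group. Markers of macrophages, dendritic cells and neutrophils differed with the subset. In uninjured mice 12 of 14 were higher in CD44high Tregs (24.7% of all genes), and in injured mice 5 of 14 (20.1% of all genes). Their summed level was 287 to 383 CPM in CD44high and 121 to 141 CPM in CD44low Tregs of uninjured mice, and 321 to 475 and 152 to 300 CPM in injured mice. S100A8 and S100A9, which mark neutrophils, averaged at most 0.27 CPM in either subset of uninjured mice and between 2.99 and 3.96 CPM in those of injured mice. Markers of B cells summed to 127 to 276 CPM in CD44high and 118 to 223 CPM in CD44low Tregs of uninjured mice. In injured mice they summed to 181 to 361 and 152 to 300 CPM. In CD44high Tregs of uninjured mice, 24.7% of all genes were higher and 21.3% lower. Of 7 markers of germinal centre B cells and plasma cells tested, 4 were higher (XBP1, SDC1, DERL3 and S1PR2) and 2 lower (BCL6 and FAS) there. They summed to 342 to 389 CPM in CD44high and 302 to 326 CPM in CD44low Tregs of uninjured mice, and to 376 to 456 and 311 to 415 CPM in injured mice. JCHAIN, of plasma cells, averaged 0.22 and 0.24 CPM in uninjured and 2.02 and 0.367 CPM in injured mice. Of 8 markers of CD8 T cells and NK cells, 2 were higher in CD44high Tregs of uninjured mice, a share near that of all genes. The 8 summed to 147 to 194 against 104 to 139 CPM there, and in injured mice the sums were 134 to 156 and 117 to 139 CPM. The part of other cell types in the results below was not tested.

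The mean log2 CPM over the 60 genes separated the 4 groups without overlap. It was 5.37, 5.59, 5.73 and 5.60 in the CD44high libraries of uninjured mice and 4.97, 4.92, 5.18 and 5.00 in those of injured mice. In CD44low Tregs it was 1.37, 1.08, 1.54, 1.23 and 1.12 in uninjured mice, and it lay between 1.61 and 2.33 in injured mice. Both subsets therefore differed between injured and uninjured mice, but in opposite directions, with CD44high libraries lower and CD44low libraries higher after injury. The group means were 5.57 ± 0.15 (SD, n = 4) and 5.02 ± 0.11 (SD, n = 4) in CD44high Tregs, and 1.27 ± 0.19 (SD, n = 5) and 1.90 ± 0.25 (SD, n = 6) in CD44low Tregs. Counted as the sum of CPM over the 60 genes, the median library held 4088 CPM in CD44high and 412 CPM in CD44low Tregs of uninjured mice. The same sums were 2854 and 527 CPM in injured mice. Since RNA came from many cells at once, a larger share of dividing cells and more of this RNA per dividing cell cannot be told apart.

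**Figure D1:**
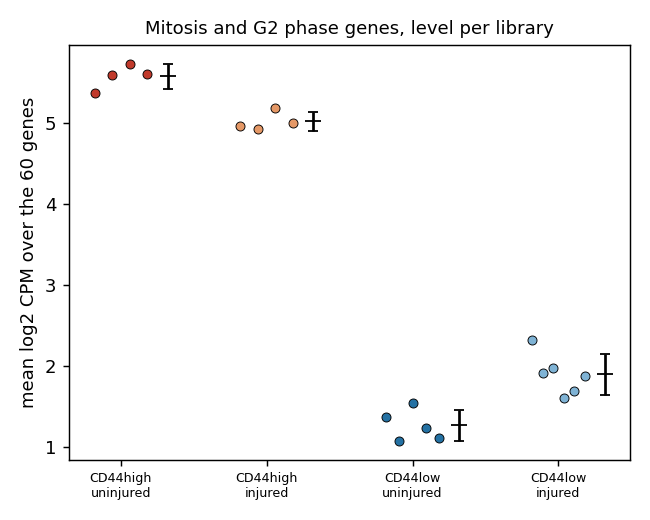
Mean log2 CPM over the 60 mitosis and G2 phase genes (vertical axis) in each of the 19 libraries by group (horizontal axis), with group mean and SD beside the points. Injured CD44high libraries lie between 4.92 and 5.18, below all uninjured CD44high libraries, and injured CD44low libraries lie between 1.61 and 2.33, above all uninjured CD44low libraries.

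The first comparison asked how CD44high and CD44low Tregs of uninjured mice differ in this program. All 60 members were higher in CD44high Tregs by edgeR's quasi-likelihood test at an adjusted p under 0.05, against 24.7% of all genes tested that were higher and 21.3% that were lower. Only 40 of the 60 passed the filter in the CD44low groups alone. The others could enter the test through CD44high Tregs, where they are high, so a call was close to fixed for them. Members were also chosen with earlier results of these data known, so these counts are a description. In all 60, every CD44high library lay above every CD44low library, which held for 21.9% of all genes, while 18.8% of all genes were separated in the opposite direction. The median log2 fold change was 4.53, with quartiles of 3.50 and 5.36, against a median of 0.01 over all genes. The smallest was that of PTTG1 at 0.45, and HMMR reached 8.30, so the set differed in size much more than in direction.

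The 14 genes of mitotic entry had a median log2 fold change of 4.57. CCNB2, which encodes cyclin B2, had 159, 177, 168 and 159 CPM in the CD44high and 1.09, 3.15, 2.70, 2.44 and 2.03 CPM in the CD44low libraries of uninjured mice. The groups were far apart, and the log2 fold change was 6.16 ± 0.23 (SE, adjusted p = 1.29e-15). CDK1, the kinase that cyclin B activates, had 47.6, 56.3, 55.9 and 54.1 CPM against 2.35, 1.26, 1.99, 2.44 and 3.88 CPM, a log2 fold change of 4.49 ± 0.27 (SE, adjusted p = 2.54e-12). CCNB1 (cyclin B1) and PLK1 differed by log2 fold changes of 4.66 and 5.35. FOXM1, a transcription factor of the program, differed less, by 2.72 ± 0.39 (SE), with means of 21.3 ± 3.80 CPM (SD, n = 4) and 3.24 ± 1.65 CPM (SD, n = 5). PBK, a mitotic kinase, differed by 7.76, and 4 of 5 CD44low libraries held no count of it.

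In the spindle checkpoint and passenger complex, all 6 members lay between log2 fold changes of 3.94 and 5.71. BIRC5, the survivin subunit of the passenger complex, was the highest at 5.71 ± 0.29 (SE), from 99.7 ± 14.3 CPM (SD, n = 4) against 1.88 ± 0.988 CPM (SD, n = 5). AURKB, the kinase of that complex, differed by 5.29 and BUB1B, a checkpoint protein, by 3.94. Kinetochore and centromere genes ranged more widely. NUF2 and NDC80 encode partners in 1 complex that binds microtubules at the kinetochore, yet their log2 fold changes were 7.05 ± 0.48 and 1.75 ± 0.22 (SE). NDC80 had 32.4, 25.3, 33.2 and 35.5 CPM in CD44high and 4.53, 8.98, 14.8, 8.91 and 9.79 CPM in CD44low libraries of uninjured mice. NUF2 was present at 31.6 to 44.3 CPM in CD44high Tregs, and 3 of 5 CD44low libraries held no count of it. In CD44low Tregs of uninjured mice the level per kilobase of exon was therefore 1.45 CPM for NDC80 and 0.0416 CPM for NUF2, against 4.87 and 6.10 CPM in CD44high Tregs.

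The 9 kinesins, motor proteins that move along microtubules, had a median log2 fold change of 4.10. KIF11, which pushes spindle poles apart, had 57.8, 82.7, 84.1 and 80.1 CPM against 2.97, 2.21, 2.13, 0.862 and 2.87 CPM, a log2 fold change of 5.11 ± 0.30 (SE, adjusted p = 1.88e-12). KIF20B was the kinesin of smallest difference at 1.60 ± 0.33 (SE, adjusted p = 0.000396), and KIF20A followed at 1.84. Of the exon bases of KIF20A, 29.3% are shared with CDC23 on the opposite strand, and no source used here names the strand setting of the counting, so reads of the pair cannot be told apart. Shared bases were 22.8% for UBE2C, 15.1% for KIF4, 12.5% for CCNA2 and 11.1% for PRC1, and 11 members shared some.

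Among the 11 spindle and microtubule proteins, GAS2L3 and HMMR were nearly absent from CD44low Tregs of uninjured mice. GAS2L3, a linker of actin and microtubules, had 7.31, 7.12, 11.0 and 7.62 CPM in the CD44high libraries of uninjured mice. None of the 5 CD44low libraries held a count of it, so by the 3 counts that a group total of 0 allows it was at least 89.6-fold higher in CD44high Tregs, and its fitted value of 8.85 is no bound. HMMR, a spindle assembly factor, had 48.7, 36.1, 50.5 and 42.3 CPM against 0, 0.473, 0, 0.144 and 0 CPM, a log2 fold change of 8.30 ± 0.45 (SE). Its CD44low group held only 4 counts in all. TPX2, which targets AURKA to the spindle, differed by 5.81 ± 0.47 (SE), while DLGAP5 differed by 2.13.

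For cytokinesis, RACGAP1, a subunit of the centralspindlin complex, had 213, 236, 251 and 229 CPM in CD44high and 15.0, 15.9, 18.3, 9.63 and 8.44 CPM in CD44low libraries of uninjured mice. It differed by 4.10 ± 0.18 (SE, adjusted p = 1.36e-14). PRC1, which bundles microtubules of the central spindle, differed by 4.87 and ECT2 by 2.68. Of the chromatin genes, MKI67, which encodes the proliferation antigen Ki-67, had 62.4, 75.8, 107 and 79.0 CPM against 5.78, 1.89, 2.13, 2.87 and 0.844 CPM. Its log2 fold change was 4.89 ± 0.41 (SE), and that of TOP2A (DNA topoisomerase II alpha) was 3.95 ± 0.30 (SE). HMGB2, a chromatin protein with the highest level per kilobase of all members (152 CPM in CD44high Tregs), differed by 2.77 ± 0.13 (SE).

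Among the anaphase genes, UBE2C and CDC20 differed by log2 fold changes of 6.04 and 3.07, whereas PTTG1 stood apart. PTTG1 encodes securin, which holds separase (ESPL1) inactive until anaphase. It had 86.3, 74.8, 81.1 and 78.4 CPM in CD44high and 52.4, 62.7, 61.0, 60.4 and 57.2 CPM in CD44low libraries of uninjured mice. The groups did not overlap, but the log2 fold change was 0.45 ± 0.12 (SE, adjusted p = 0.00454). Its level was thus within a narrow range in all 4 groups, at 40.1, 29.4, 39.4 and 37.7 CPM per kilobase in CD44high and CD44low Tregs of uninjured mice and then of injured mice. ESPL1 itself differed by 5.15 ± 0.60 (SE), from 12 counts in all in CD44low Tregs of uninjured mice.

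**Figure D2:**
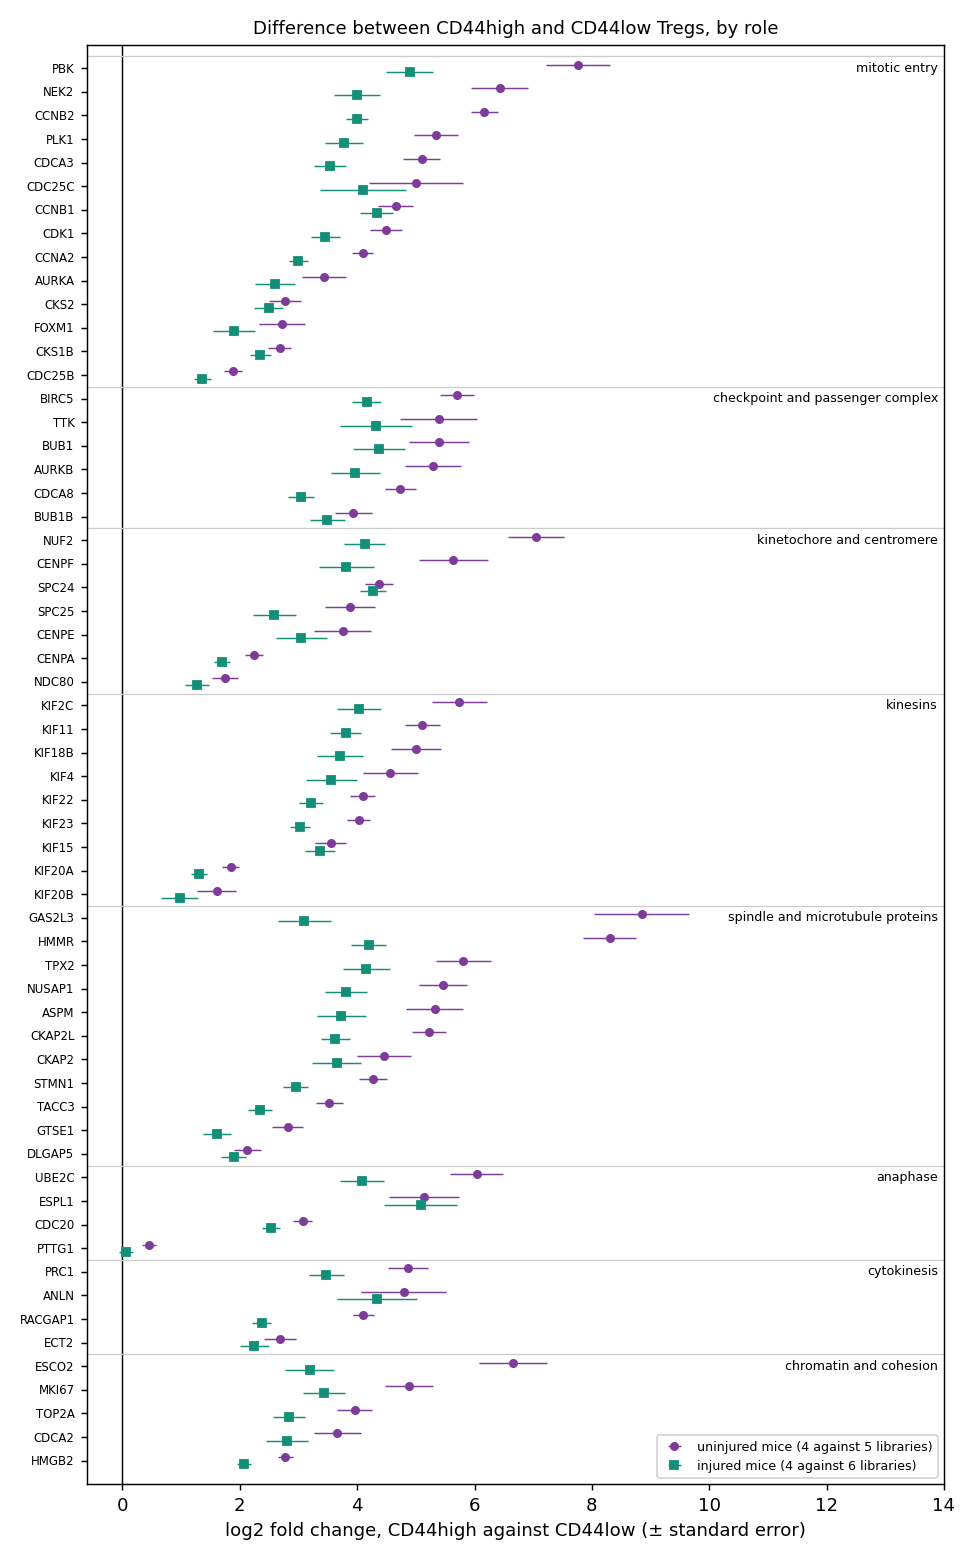
Log2 fold change of CD44high against CD44low Tregs with its standard error (horizontal axis) for each of the 60 genes (vertical axis, grouped by role), in uninjured mice (circles) and injured mice (squares). All values lie above 0, from 0.45 for PTTG1 to a fitted 8.85 for GAS2L3 (0 counts in CD44low Tregs, so no bound) in uninjured mice, and PTTG1 in injured mice is nearest to 0 at 0.06.

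Since members lay on 1 side in the comparison of the subsets, their promoters were searched for letters that late cell cycle promoters are known to carry. These were TTTGAA, the cell cycle genes homology region (CHR), its variant TTTAAA, and CCAAT, the site of the factor NF-Y, each on both strands in 300 bases around the start site. TTTAAA reads the same on both strands, and a match of CCAAT can share its last base with one of TTTGAA or TTTAAA. RefSeq promoters (GRCm38.p6) were matched for 48 of 60 members. TTTGAA occurred for 35 of the 48 (72.9%), against 14.1% of 9075 other genes tested and 20.2% of 27025 genes with a promoter in the table. CCAAT occurred for 79.2% of members, 42.8% of other genes tested and 41.1% of all genes, and TTTAAA for 22.9%, 10.8% and 14.9%. CCAAT together with TTTGAA or TTTAAA occurred for 33 of 48 members (68.8%), against 8.76% of other genes tested and 12.2% of all genes. The promoters of 5 of the genes whose values are given in full are shown, 5′ to 3′ on the strand of the gene. They run from 150 bases before the start site to 30 bases from it on, with matches of the 3 motifs on either strand in capitals.
CCNB2, minus strand, chr9:70421525-70421704: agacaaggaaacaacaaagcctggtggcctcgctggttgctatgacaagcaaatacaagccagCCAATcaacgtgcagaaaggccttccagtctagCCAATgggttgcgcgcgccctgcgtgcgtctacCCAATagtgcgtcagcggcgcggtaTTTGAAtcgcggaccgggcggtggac
CDK1, minus strand, chr10:69352883-69353062: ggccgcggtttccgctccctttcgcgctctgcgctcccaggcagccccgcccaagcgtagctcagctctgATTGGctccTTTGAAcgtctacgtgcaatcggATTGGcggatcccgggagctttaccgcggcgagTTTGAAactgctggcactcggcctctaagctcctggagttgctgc
KIF11, plus strand, chr19:37376232-37376411: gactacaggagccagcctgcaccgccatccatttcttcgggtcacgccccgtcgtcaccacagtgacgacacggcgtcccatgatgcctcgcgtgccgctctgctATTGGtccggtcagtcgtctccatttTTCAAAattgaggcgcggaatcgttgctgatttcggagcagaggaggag
RACGAP1, minus strand, chr15:99651627-99651806: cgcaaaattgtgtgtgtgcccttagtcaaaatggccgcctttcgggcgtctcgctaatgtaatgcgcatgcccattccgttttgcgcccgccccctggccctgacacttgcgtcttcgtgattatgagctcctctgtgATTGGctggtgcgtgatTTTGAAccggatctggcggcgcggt
PTTG1, minus strand, chr11:43425952-43426131: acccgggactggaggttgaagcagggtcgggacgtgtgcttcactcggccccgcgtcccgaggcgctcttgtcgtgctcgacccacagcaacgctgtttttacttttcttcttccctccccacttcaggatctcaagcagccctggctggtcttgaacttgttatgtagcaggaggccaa
The first 4 hold both CHR and CCAAT letters. Among genes with values in full that are not shown, HMMR, MKI67 and KIF22 held both. NDC80 held no CCAAT, and GAS2L3 held neither TTTGAA nor TTTAAA. PTTG1 held none of the 3 motifs in the 300 bases, and neither did NUF2, NUSAP1 or TACC3, whose log2 fold changes between the subsets in uninjured mice were 7.05, 5.46 and 3.53. A match of letters is a description and not a measured binding site.

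The second comparison asked the same of injured mice. Here 59 of 60 members were higher in CD44high Tregs, against 20.1% of all genes that were higher and 17.2% that were lower. As in uninjured mice, the choice of members and the filter limit what this count can show. The same number, 59, did not overlap between the groups, against 15.6% of all genes, and 9.2% of all genes were separated in the opposite direction. The median log2 fold change was 3.44, and each of the 60 had a smaller fitted value than in uninjured mice. PTTG1 was the exception to the calls: its libraries held 87.6, 67.6, 87.4 and 72.3 CPM in CD44high Tregs and between 60.2 and 93.9 CPM in CD44low Tregs (median 74.8). These groups overlapped, and the log2 fold change was 0.06 ± 0.12 (SE, adjusted p = 0.708).

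The largest differences in injured mice were those of ESPL1 (5.09), PBK (4.90) and BUB1 (4.37), and the smallest after PTTG1 were those of KIF20B (0.98) and NDC80 (1.27). ESPL1 had only 7 counts in all in CD44low Tregs of injured mice, with 3 libraries at 0, and PBK had 26, so the order of the largest is uncertain. By role, the medians were 4.07 for the checkpoint and passenger complex, 3.63 for spindle proteins, 3.50 for mitotic entry and 3.37 for kinesins. They were 3.30 for anaphase, 3.05 for kinetochore genes, 2.92 for cytokinesis and 2.84 for chromatin genes. GAS2L3 and HMMR had log2 fold changes of 3.10 ± 0.45 and 4.20 ± 0.29 (SE) in injured mice. The 14 index members, named in every comparison, were all higher: among them MKI67 stood at 3.43, TOP2A at 2.84, CCNB1 at 4.33, CDK1 at 3.45, PLK1 at 3.77, AURKB at 3.97, BUB1B at 3.49 and KIF11 at 3.81. TPX2 (4.16), BIRC5 (4.16), CDC20 (2.53), PRC1 (3.48) and FOXM1 (1.90) were called as well.

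The third comparison asked how injury changed the program in CD44high Tregs. Of the 60 log2 fold changes, 59 were negative, with a median of -0.58 against -0.02 over all genes, and CKS2, a small CDK-binding protein, was the exception at 0.06. At an adjusted p under 0.05, 2 members fell and none rose, against 1.33% of all genes that fell and 1.06% that rose. At an unadjusted p under 0.05, 26 members were lower and 0 higher, against 8.33% and 6.81% of all genes. DESeq2 called 10 members lower and 0 higher, and 282 and 195 of all genes. In 33 members every injured library lay below every uninjured one, against 7.34% of all genes, and in 0 members it was the reverse, against 5.91% of all genes.

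The 2 members that fell were RACGAP1 and KIF22, a kinesin that pushes chromosome arms. RACGAP1 held 124, 127, 158 and 138 CPM in injured mice, below the 213 to 251 CPM of uninjured mice, with a log2 fold change of -0.76 ± 0.17 (SE, adjusted p = 0.0148). KIF22 held 47.9, 39.9, 53.9 and 43.1 CPM, against 80.2, 80.4, 78.6 and 87.3 CPM in uninjured mice, with a log2 fold change of -0.82 ± 0.20 (SE, adjusted p = 0.022). Neither gene overlapped between the groups. Without CD44high replicate 3 of uninjured mice, or without CD44high replicate 2 of injured mice, 0 members were called, and RACGAP1 then reached an adjusted p of at most 0.0601. KIF22 was also lost without CD44high replicates 2 or 5 of uninjured mice and without replicates 3 or 5 of injured mice, with an adjusted p of at most 0.0869, while 4 members were called without CD44low replicate 1 of uninjured or library 4_2 of injured mice.

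Fitting the 2 CD44high groups alone gave another count. In that fit 28 of 60 members fell and none rose, against 2.91% of 11106 genes tested that fell. The smallest adjusted p were those of RACGAP1 (0.000636), NUSAP1 (0.00137), KIF22 (0.00164), CDK1 (0.002) and PRC1 (0.00254). NUSAP1, a microtubule-binding spindle protein, had a log2 fold change of -0.94 in that fit. The 28 also held PLK1, AURKB, BUB1B, TOP2A, MKI67, KIF11, TPX2 and CDC20.

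Single members showed how far the levels were apart. CDK1 had 26.4, 27.4, 33.0 and 32.0 CPM in injured mice, all below the 47.6 to 56.3 CPM of uninjured mice, but its log2 fold change of -0.85 ± 0.23 (SE) had an adjusted p of 0.0553 over all groups. MKI67 had 36.5, 46.0, 54.5 and 53.4 CPM, below the 62.4 to 107 CPM of uninjured mice, with -0.77 ± 0.35 (SE, adjusted p = 0.292). The other index members had log2 fold changes of -0.79 (TOP2A), -0.50 (CCNB1), -0.88 (PLK1), -0.58 (AURKB), -0.77 (BUB1B), -0.45 (NDC80) and -0.65 (KIF11). Those of TPX2 (-0.63), BIRC5 (-0.39), CDC20 (-0.57), PRC1 (-0.88) and FOXM1 (-0.80) were of the same sign. Of the 14 index members, 12 were lower without overlap, against 7.34% of all genes. By role the median was nearest to 0 for the 7 kinetochore and centromere genes (-0.27) and lay between -0.53 and -0.73 for the other 7 roles. The sort gene CD44 moved with these values, from 595 to 436 CPM (log2 fold change -0.45, adjusted p = 0.0546). The part of the cells taken into the gate in these differences was not tested.

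**Figure D3:**
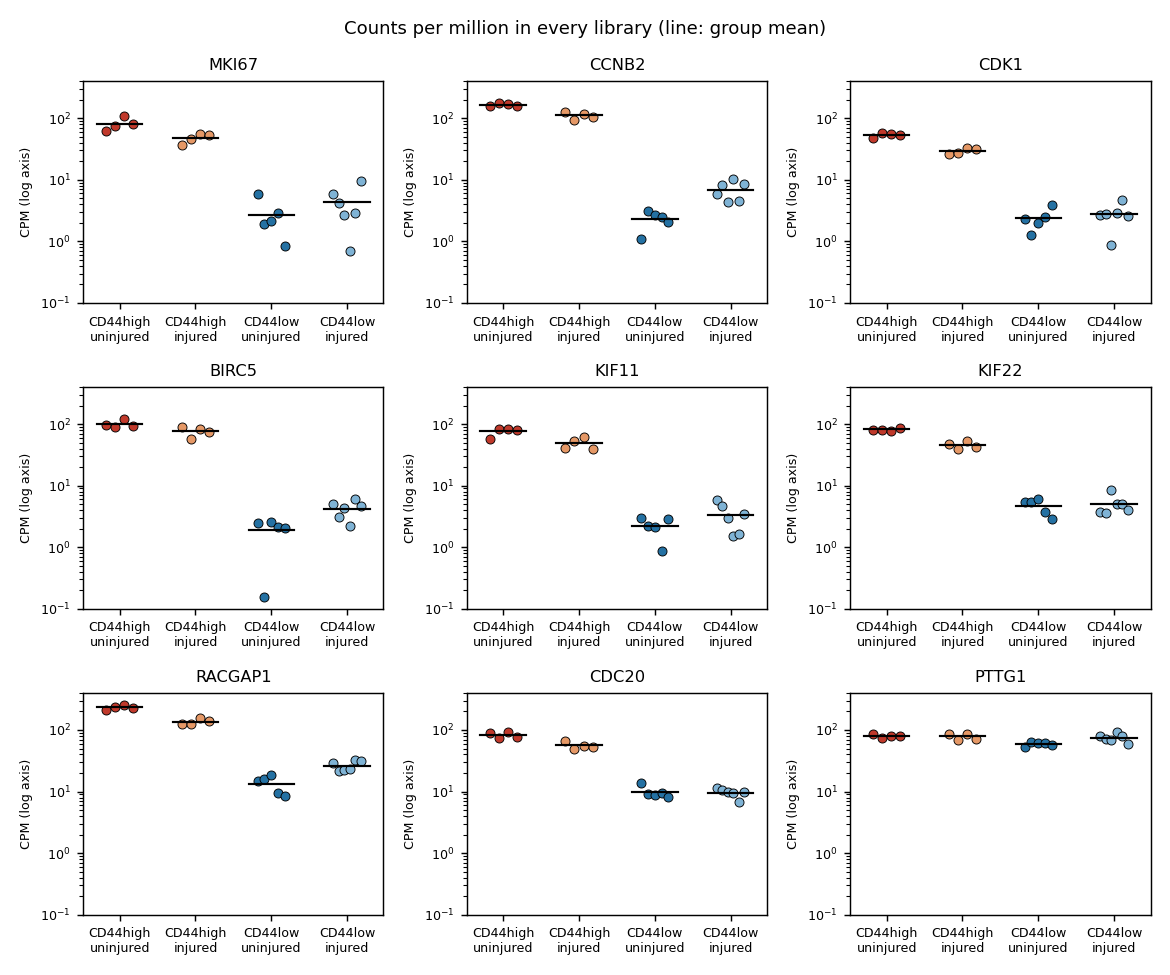
CPM on a log axis (vertical) in each library of the 4 groups (horizontal) for 9 members, with a line at each group mean. In CDK1, KIF22, RACGAP1 and MKI67 the injured CD44high points all lie below the uninjured ones, in CCNB2 and RACGAP1 the injured CD44low points all lie above the uninjured ones, and PTTG1 stays between 52.4 and 93.9 CPM throughout.

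The fourth comparison asked how injury changed the program in CD44low Tregs, where it was low. Of the 60 log2 fold changes 52 were positive, with a median of 0.46 against 0.01 over all genes. At an adjusted p under 0.05, 11 members rose and none fell, against 4.24% of all genes that rose and 3.36% that fell. At an unadjusted p under 0.05 the counts were 22 and 0, against 14.5% and 11.6% of all genes. DESeq2 called 18 members higher and 0 lower, and 926 and 527 of all genes. In 4 members, CCNB2, CDCA8, HMMR and RACGAP1, every injured library lay above every uninjured one, which held for 2.39% of all genes, and 0 members were separated in the other direction, against 2.29% of all genes.

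CCNB2 lay between 1.09 and 3.15 CPM in uninjured mice and rose to between 4.42 and 10.2 CPM (median 7.01) in injured mice, which was an increase of 1.59 ± 0.24 on the log2 scale (SE, adjusted p = 0.000554). RACGAP1 lay between 8.44 and 18.3 CPM and rose to between 21.3 and 32.4 CPM (median 26.0), a log2 fold change of 0.97 ± 0.17 (SE, adjusted p = 0.00165). HMMR, of which 3 of 5 uninjured libraries held no count, lay between 0.517 and 3.28 CPM (median 1.79) after injury, and the log2 fold change was 3.66 ± 0.60 (SE, adjusted p = 0.00114). These 3 calls held in each of the 19 fits that left out 1 library, as did those of CDCA8, GAS2L3, HMGB2 and ESCO2. Without the 3 injured CD44low libraries that lack a second number, CCNB2, RACGAP1 and HMMR kept their calls. CDCA8, GAS2L3, HMGB2 and ESCO2 lost theirs in that fit (adjusted p = 0.145 for ESCO2), and HMGB2 also lost its call with a replicate block on the label number. CDCA8, a subunit of the passenger complex, rose by 1.23 ± 0.27 (SE, adjusted p = 0.00823), and BIRC5 of the same complex by 1.15 ± 0.32 (SE, adjusted p = 0.0311). GAS2L3, with 0 counts in uninjured and 26 counts in injured mice, was at least 7.12-fold higher (adjusted p = 0.00627), and 1 of 6 injured libraries held none.

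NUF2 rose by 2.41 ± 0.61 (SE, adjusted p = 0.0193), from 9 counts over the 5 uninjured libraries to 61 over the 6 injured ones. ESCO2, which acetylates cohesin, rose by 2.74 ± 0.69 (SE, adjusted p = 0.0185), and HMGB2 by 0.47 ± 0.12 (SE, adjusted p = 0.0185). The ESCO2 value rests on 8 counts in uninjured and 69 in injured mice. CENPA, the histone variant of centromeres, and PTTG1 rose least, by 0.44 ± 0.14 (SE, adjusted p = 0.0499) and 0.36 ± 0.11 (SE, adjusted p = 0.0496). Leaving out 1 library ended the call of CENPA in 10 of 19 fits and that of PTTG1 in 11 of 19, with adjusted p of up to 0.123 and 0.113. Summing libraries 1 with 1_2 and 5 with 5_2 ended both calls as well. Without CD44low replicate 1 of injured mice 7 members were called, and BIRC5 (adjusted p = 0.0574) and NUF2 (adjusted p = 0.050) were not among them.

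Fitting the 2 CD44low groups alone ended most of these calls. In that fit 40 members passed the filter and 3 rose, against 1.98% of 10672 genes that rose and 2.36% that fell: CCNB2 (adjusted p = 0.0176), RACGAP1 (adjusted p = 0.0183) and HMGB2 (adjusted p = 0.0492). CDCA8 (adjusted p = 0.0569), CENPA and PTTG1 (adjusted p = 0.0934 for both) and BIRC5 (adjusted p = 0.133) were not called, and HMMR, GAS2L3, NUF2 and ESCO2 did not pass its filter.

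The index members other than BIRC5 gave no call in CD44low Tregs. MKI67 had 5.78, 1.89, 2.13, 2.87 and 0.844 CPM in uninjured mice, and its lowest, median and highest values in injured mice were 0.690, 3.56 and 9.60 CPM. These groups overlapped, with a log2 fold change of 0.69 ± 0.42 (SE, adjusted p = 0.309). CDK1 had a log2 fold change of 0.19, TOP2A 0.33, PLK1 0.70, AURKB 0.74, KIF11 0.66, TPX2 1.02, PRC1 0.51, NDC80 0.03 and FOXM1 0.01. CCNB1 (-0.18), BUB1B (-0.33) and CDC20 (-0.03) were negative, and the signs of CDK1, TOP2A, NDC80, FOXM1, CCNB1, BUB1B and CDC20 turned when libraries were left out.

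The libraries with and without a second number differed in level. Over the 60 genes the mean log2 CPM was 1.91, 1.98 and 2.33 in the 3 injured CD44low libraries without a second number, and 1.61, 1.69 and 1.88 in the 3 with one. Both sets lay above the uninjured CD44low libraries, of which the highest was 1.54. With the libraries that lack a second number alone, 19 members rose, against 7.40% of all genes, and with the others alone 4 rose, against 2.62%. In these 2 fits the median log2 fold change was 0.70 and 0.30. Macrophage, dendritic cell and neutrophil markers moved the same way in CD44low Tregs, with 4 of 14 higher after injury, against 4.24% of all genes. Their part in the rise of the members was not tested.

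**Figure D4:**
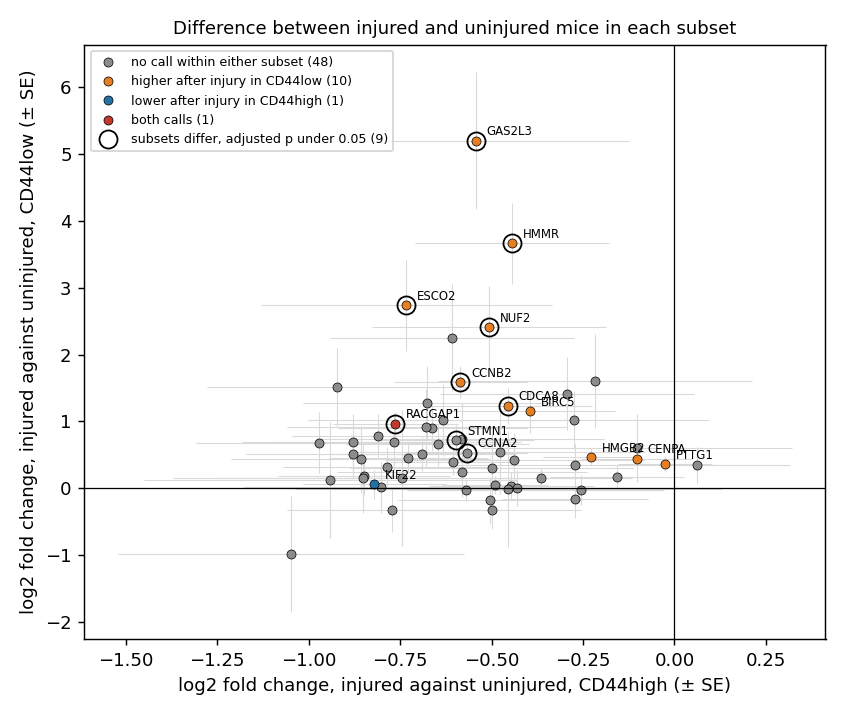
Log2 fold change of injured against uninjured mice with its standard error in CD44high Tregs (horizontal axis) and in CD44low Tregs (vertical axis), 1 point for each of the 60 genes. Orange points were higher in CD44low Tregs (10), the blue point was lower in CD44high Tregs (KIF22), the red point met both (RACGAP1), and rings mark the 9 members whose change differed between the subsets.

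The last comparison tested whether the change after injury differed between the subsets (the change in CD44high minus that in CD44low Tregs). All 60 differences were negative, with a median of -1.09 against -0.03 over all genes. At an adjusted p under 0.05, 9 members were negative and none positive, against 0.454% of all genes that were negative and 0.192% that were positive. At an unadjusted p under 0.05, 38 members were negative and 0 positive, against 6.93% and 3.95% of all genes. DESeq2 called 19 members negative and 0 positive, and 157 and 58 of all genes. The members called were RACGAP1, CCNB2, HMMR, GAS2L3, CDCA8, CCNA2, ESCO2, NUF2 and STMN1. Of these, HMMR, GAS2L3, ESCO2 and NUF2 did not pass the filter in the CD44low groups alone. They could enter this test through CD44high Tregs, where they are high. As in the comparisons of the subsets, the choice of members and the filter limit what these counts can show.

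RACGAP1 had a difference of -1.73 ± 0.24 (SE) and CCNB2 one of -2.17 ± 0.30 (SE), both with an adjusted p of 0.00054. That of HMMR was -4.11 ± 0.67 (SE, adjusted p = 0.00241), a size that rests on 4 counts in CD44low Tregs of uninjured mice. The calls of these 3 and of GAS2L3 held in every fit that left out 1 library. CCNA2, the gene of cyclin A2, and CDCA8 differed by -1.10 and -1.69 (adjusted p = 0.0245 and 0.0204), and were called in 15 and 17 of the 19 fits. A replicate block on the label number within injured and within uninjured mice ended both calls (adjusted p = 0.189 and 0.157). For GAS2L3 (adjusted p = 0.0174) the fitted size depends on a group with no counts and is not given as a fold. It was called in 6 of 9 other alternatives. ESCO2 (-3.47, adjusted p = 0.0409), NUF2 (-2.92, adjusted p = 0.0492) and STMN1 (-1.32, adjusted p = 0.0492), the last a destabilizer of microtubules, kept their calls in only 6, 5 and 5 of the 19 fits that left out 1 library. ESCO2 and NUF2 had 8 and 9 counts in all in CD44low Tregs of uninjured mice, so their sizes are uncertain. Without CD44high replicate 5 of injured mice 4 members were called, and 5 without CD44high replicates 3 or 4 of injured or replicate 4 of uninjured mice.

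Index members gave no call here. Their differences were -1.46 for MKI67, -1.11 for TOP2A, -0.32 for CCNB1, -1.03 for CDK1, -1.58 for PLK1, -1.32 for AURKB, -0.44 for BUB1B and -0.48 for NDC80. Those of KIF11 (-1.30), TPX2 (-1.65), BIRC5 (-1.54), CDC20 (-0.54), PRC1 (-1.39) and FOXM1 (-0.82) were also negative. BIRC5 came nearest to the threshold with an adjusted p of 0.0724. By role the medians lay between -0.46 for anaphase genes and -1.59 for spindle and microtubule proteins.

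Across all 19 libraries each member followed the mean of the others, with Pearson's r between 0.57 and 0.99 (median 0.96), a description that rests largely on the gap between the subsets. PTTG1 had the lowest r at 0.57 and KIF20B the next at 0.81. After the group means were removed, r ranged from -0.42 for TTK to 0.72 for KIF20A, with a median of 0.32. It was below 0 for 12 members and above 0.5 for 11, so members shared less of their variation within groups. Libraries share depth and preparation, and no test was made.

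Other genes of the cell cycle gave a scale for the 60. Of 45 S phase genes, 43 were higher in CD44high Tregs of uninjured mice and 42 in those of injured mice, with median log2 fold changes of 1.72 and 1.32. Over all genes, 24.7% and 20.1% were higher, and 21.3% and 17.2% lower. RRM2 and RRM1, the subunits of ribonucleotide reductase, differed by 4.88 and 1.97 in uninjured mice, UHRF1, a reader of DNA methylation, by 3.20, and MCM6, of the replicative helicase, by 1.64. After injury the S phase genes had medians of -0.30 in CD44high and 0.10 in CD44low Tregs. RRM1 and MCM7 fell in the former (-0.45 and -0.44), and TYMS and RFC4 rose in the latter (1.09 and 0.65). Of 32 further kinetochore genes, 24 were higher in CD44high Tregs of uninjured mice and 21 in those of injured mice, with none lower. KNL1, the scaffold that recruits checkpoint proteins, differed by 4.48 and INCENP by 1.88 in uninjured mice.

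Lists with subunits that resting cells also use moved less evenly, and their counts in uninjured mice stand beside 24.7% of all genes that were higher and 21.3% that were lower. Among 19 condensin and cohesin genes, 9 were higher and 5 lower in CD44high Tregs of uninjured mice. In injured mice 8 were higher and 4 lower, against 20.1% and 17.2% of all genes. NCAPH and NCAPG, of condensin I, differed by 4.34 and 4.96 and NCAPD2 by 2.06, whereas SMC4, the core subunit of both condensins, differed by -1.07 (305 ± 62.6 CPM, SD, n = 4, against 639 ± 49.5 CPM, SD, n = 5). The other genes lower were STAG1, STAG2, PDS5A and PDS5B of cohesin, at -0.84 to -0.40. Of 16 subunits and regulators of the anaphase-promoting complex, 4 were higher, a share near that of all genes, and 2 lower, the former being the inhibitor FBXO5 (2.84), ANAPC15 (0.84), FZR1 (0.79) and ANAPC4 (0.56), and the latter ANAPC1 (-0.72) and CDC26 (-0.48). Of 12 genes of the MuvB, DREAM and B-Myb group 6 were higher and none lower, led by MYBL2, the gene of B-MYB, at 6.21. MYBL2 had a log2 fold change of 1.77 after injury in CD44low Tregs (adjusted p = 0.0547). Of 13 brakes on CDK1, 6 were higher and 3 lower, with CDKN1A, an inhibitor of cyclin-dependent kinases, at 3.01 and WEE1, which inhibits CDK1, at 2.39. GADD45B differed by 1.54, and the lower genes were the antiproliferative BTG2 (-0.59), BTG1 (-0.51) and TRP53 (-0.40).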

How the data were processed

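Bulk RNA-seq of sorted lymph node Tregs (19 libraries in 4 groups) was taken from the raw counts per gene that the authors deposited, made with STAR (2.5 in the submitters' processing notes, beside bcl2fastq 2.18) through the VIPER workflow. The notes name builds mm9 and mm10 without a role, and no source used here gives the annotation. Values were not normalized and replicates were kept apart. RNA was amplified as cDNA before libraries were made, and reads carry no molecular identifiers, so counting error alone lies behind a floor of 3 counts per group.

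Counts were analysed with edgeR 4.0.16 (R 4.3.3, limma 3.58.1): a minimum count of 10 in the filter on low counts, TMM factors, 1 mean for each of the 4 groups, no covariates, and the two-sided quasi-likelihood test with Benjamini-Hochberg adjustment over 11464 genes. Log2 CPM used a prior count of 2. The test was tested on simulated data. No pair of libraries matched within counting noise. Members and lists were chosen with earlier results of these data known. Named genes were 14 index members in each comparison, the 3 largest and 3 smallest changes between subsets, every member called after injury, and up to 4 genes of smallest p for each other list. Genes singled out beyond these (such as NUF2, KIF20A and DLGAP5) were chosen after their values were seen.

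Alternatives were DESeq2 1.42.0, RLE factors, no filter, compared groups alone, replicate blocks, libraries left out, summed or thinned, a lower prior count and the threshold of the study. Using only injured CD44low libraries with a second number was chosen after seeing the data. Exon lengths and shared bases came from GENCODE vM21, older symbols and promoters from RefSeq. Figures used Python 3.11.15 and matplotlib 3.10.9.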

Additional observations from a re-analysis of the deposited data

Results flagged for a closer look

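In 9 members the change after injury differed between the subsets by the test of that difference. The differences on the log2 scale (CD44high minus CD44low) were -1.73 for RACGAP1, -2.17 for CCNB2, -4.11 for HMMR, -5.75 for GAS2L3, -1.69 for CDCA8, -1.10 for CCNA2, -3.47 for ESCO2, -2.92 for NUF2 and -1.32 for STMN1. The fitted value of GAS2L3 rests on a group with no counts and is no bound. Those of HMMR, ESCO2 and NUF2 rest on 4, 8 and 9 counts in that group, CD44low Tregs of uninjured mice. GAS2L3, HMMR, ESCO2 and NUF2 did not pass the filter on low counts in the CD44low groups alone.

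Among 92 checks of a group for a library far from the others, 6 met Dixon's criterion, and chance alone gives about 4.6. The kinesins averaged 5.18 log2 CPM in CD44high replicate 4 of injured mice, against at most 4.92 in the others. CCNB1 had 2.53 CPM in CD44low replicate 1 of injured mice, where the others reached at most 1.57. BUB1B had 8.25 CPM in CD44low library 5_2 of injured mice, where the others reached at most 4.56. KIF11 had 57.8 CPM in CD44high replicate 2 of uninjured mice, where the others held at least 80.1. BIRC5 had 0.158 CPM in CD44low replicate 2 of uninjured mice, where the others held at least 2.03. CDC20 had 13.9 CPM in CD44low replicate 1 of uninjured mice, where the others reached at most 9.49.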

How the results depend on the processing

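Members higher in CD44high Tregs numbered 57 to 60 in uninjured and 53 to 59 in injured mice under all alternatives, and no member was lower. The 2 members that fell after injury in CD44high Tregs became 10 by DESeq2, 28 with the compared groups alone, 13 without the 3 libraries with a second number, 10 with libraries summed, 4 without the 3 injured CD44low libraries that lack one and 0 at an unadjusted p under 1e-06 and 2-fold. Leaving out 1 library gave 0 to 4. Calls moved over all genes too: those that fell numbered 152 in the main fit and 282, 323, 312, 277 and 187 in the first 5 of these alternatives. The 11 members that rose in CD44low Tregs became 18 by DESeq2, 3 with the compared groups alone (of 40 members tested), 19 without the 3 libraries with a second number, 4 without the others and 1 at the threshold of the study, and 7 to 15 with 1 library left out. Over all genes, 486 rose in the main fit and 926, 211, 858 and 303 in the first 4 of these. With libraries 1 and 1_2 and libraries 5 and 5_2 summed, 411 of all genes rose, and CENPA and PTTG1 lost their calls. The 9 members of the interaction became 19 by DESeq2, 19 without the 3 libraries with a second number, 5 without the others and 2 at the threshold of the study, and 4 to 11 with 1 library left out. Over all genes, negative interactions numbered 52 in the main fit and 157, 163 and 97 in the first 3 of these. The calls of all 9 held with libraries summed. The cause was not tested, except that fewer members passed the filter with CD44low groups alone.

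The label numbers were not used to pair samples in the main test. The labels do not say whether equal numbers mean the same mice. Same-numbered CD44high and CD44low libraries correlated in their deviations at -0.05 to 0.17 in injured mice (median 0.11, 3 of 4 over 0.1). Pairs of different number lay at -0.45 to 0.41 there (median -0.05, 5 of 20 over 0.1). In uninjured mice the ranges were -0.01 to 0.12 (median 0.03) and -0.08 to 0.04 (median -0.01). These values cannot decide whether the samples were paired. With a replicate block on the number, 6 members rose in CD44low Tregs and 5 interactions were called. With the block within injured and within uninjured mice, 5 interactions were called. Calls moved over all genes too: 218 rose in CD44low Tregs with the former block, against 486 in the main fit. Negative interactions over all genes numbered 40 with the former and 21 with the latter, against 52 in the main fit. KIF22 had an adjusted p of 0.0512 with the former, and the latter ended the interaction calls of CCNA2 (adjusted p = 0.189) and CDCA8 (adjusted p = 0.157).

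With a prior count of 0.5 the module differences were 4.79 between subsets in uninjured mice, 0.90 after injury in CD44low Tregs and -1.47 for the interaction. Leaving out 1 library gave 4.25 to 4.37, 3.06 to 3.19 in injured mice, -0.61 to -0.50 after injury in CD44high, 0.56 to 0.72 in CD44low Tregs and -1.26 to -1.11 for the interaction.

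Signs turned only for log2 fold changes that were not called. After injury in CD44low Tregs they were -0.17 for CDK1, -0.28 for FOXM1 and 0.10 for CDC20 without the 3 libraries with a second number, and -0.082 for TOP2A and -0.21 for NDC80 without the 3 that lack one. CDC20 was at 0.0027 with no filter and FOXM1 at -0.056 with the number block. With 1 library left out, BUB1B lay at -0.57 to 0.21, CCNB1 at -0.39 to 0.29, CDC20 at -0.068 to 0.15, FOXM1 at -0.17 to 0.34 and NDC80 at -0.12 to 0.28. PTTG1 between subsets in injured mice was -0.0088 without the 3 that lack a second number and -0.015 to 0.13 with 1 library left out. Depth limits members such as HMMR and PBK, with 4 counts each over the uninjured CD44low libraries.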
